A study of Homo sapiens with 9 samples.

Results

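The vacuolar proton pump and a set of lysosomal enzymes, lysosomal membrane proteins and the transcription factor TFEB were followed across an RNA experiment in which PVRL4 was knocked down. Members were the rows of the expression table whose gene name starts with ATP6V0, ATP6V1 or ATP6AP, together with 22 further named genes: the cathepsin genes CTSA, CTSB, CTSD, CTSL2 and CTSZ, the hydrolase and activator genes DNASE2, GAA, GLA, GUSB, HEXA, NEU1, PSAP and TPP1, the membrane and lipid transport genes CD63, CD68, LAMP1, LAMP2, MCOLN1, NPC1, NPC2 and SCARB2, and TFEB. The names matched 49 of the 20812 rows. Of these, 43 reached a mean of at least 1 RPM (reads of a gene scaled to the total reads of its library) over the 9 libraries, as did 11158 rows of the whole table. By role the 43 are 8 genes of the membrane sector of the pump (V0), 11 of its cytosolic sector (V1), 2 accessory proteins, 13 hydrolases or activators, 8 membrane or lipid transport proteins and TFEB.

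All libraries came from SKBR3 cells, an established human line from a breast carcinoma in which ERBB2 is amplified. Every group was transfected with 10 nM siRNA in the lipid reagent Lipofectamine RNAiMAX and kept for 48 h. The siRNA 2 group received the PVRL4 siRNA numbered 2, the siRNA 1 group the PVRL4 siRNA numbered 1, both from Integrated DNA Technologies, and the control group an ON-TARGETplus non-targeting siRNA from Horizon Discovery, with 3 libraries each. PVRL4, now also named NECTIN4, encodes the adhesion protein nectin-4. Whether replicates were grown as separate cultures is not given in the labels, and the p-values then reflect only the spread among these 9 libraries, which may be technical.

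Libraries held 10017130 to 10707777 reads, and 1 read was worth 0.0934 to 0.0998 RPM. PVRL4 itself ranged over 2.58 to 3.39 RPM in siRNA 2 libraries, 4.36 to 5.99 RPM in siRNA 1 libraries and 7.86 to 11.6 RPM in control libraries, with no overlap. Of 15 markers of SKBR3 and luminal epithelial cells, 13 reached 1 RPM, and ERBB2 lay between 549 and 919 RPM. Their summed level was 11458 to 12313 RPM in siRNA 2 libraries and 13225 to 14080 RPM in siRNA 1 libraries. In control libraries it was 13699 to 14462 RPM, so the siRNA 2 libraries lay below all others. KRT19, with a mean of 5433 RPM, made up a large part of these sums. Of 18 markers of macrophages and other leukocytes, 16 had a mean under 0.3 RPM and PTPRC, which encodes the leukocyte surface protein CD45, was at 0 in every library. Fibroblast and endothelial markers summed to 9.54 to 15.7 RPM.

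The vacuolar proton pump is a rotary machine in the membrane of lysosomes and other acidic compartments. Its V1 sector hydrolyses ATP in the cytosol, and the V0 sector uses the rotation to carry protons into the lumen, where cathepsins, glycosidases and nucleases work at acid pH. Many lysosomal genes carry a binding site of TFEB and its relatives near their start, the CLEAR element, built around the E-box CACGTG, and the pump also takes part in amino acid sensing by mTORC1 on the lysosomal surface. Cancer cells use lysosomes to recycle nutrients and surface receptors.

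The promoter sequences of members were read from RefSeq (build GRCh38.p14), as windows from 250 bases before to 50 bases after an annotated start. They matched 32 of the 43 genes with 48 windows, and ATP6V1A is among those with no entry. The E-box CACGTG, searched on both strands and equal to its own reverse complement, was present for 11 of 32 genes (34.4%), against 8.77% of the 27305 genes in the table. Counted by window, it was in 12 of 48 (25.0%), against 7.26% of all 35116 windows. The longer palindrome TCACGTGA, which contains it, was present for 6 genes (18.8%, against 1.18% of all genes): ATP6V0D1, ATP6V1G1, CTSA, GAA, LAMP1 and MCOLN1. The 10-letter CLEAR consensus, which extends the E-box on both sides, was present for ATP6V1G1, GAA and MCOLN1 (9.38%, against 0.421%). These matches are descriptions of sequence and not measured binding, and the build differs from the hg19 build of the submitters' processing notes. The windows of DNASE2 and CD68, called members without a match, and of 4 of the 6 genes with TCACGTGA are each written 5′ to 3′ on the strand of the gene, with the letters CACGTG in capitals. These 4 were lowest in replicate 3 of every group and were picked after their levels were seen.
DNASE2, chr19:12881400-12881699, minus strand: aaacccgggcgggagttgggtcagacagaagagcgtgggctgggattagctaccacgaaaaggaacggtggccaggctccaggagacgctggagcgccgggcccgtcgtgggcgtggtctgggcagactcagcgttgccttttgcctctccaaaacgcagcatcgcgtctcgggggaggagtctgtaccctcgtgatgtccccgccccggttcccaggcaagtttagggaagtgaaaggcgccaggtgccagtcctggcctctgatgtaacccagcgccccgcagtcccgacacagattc
CD68, chr17:7579388-7579687, plus strand: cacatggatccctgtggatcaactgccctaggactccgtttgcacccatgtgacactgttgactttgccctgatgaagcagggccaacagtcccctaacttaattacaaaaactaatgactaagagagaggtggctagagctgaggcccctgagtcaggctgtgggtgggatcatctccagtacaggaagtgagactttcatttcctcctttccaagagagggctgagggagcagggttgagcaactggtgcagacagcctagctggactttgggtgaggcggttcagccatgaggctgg
ATP6V0D1, chr16:67481108-67481407, minus strand: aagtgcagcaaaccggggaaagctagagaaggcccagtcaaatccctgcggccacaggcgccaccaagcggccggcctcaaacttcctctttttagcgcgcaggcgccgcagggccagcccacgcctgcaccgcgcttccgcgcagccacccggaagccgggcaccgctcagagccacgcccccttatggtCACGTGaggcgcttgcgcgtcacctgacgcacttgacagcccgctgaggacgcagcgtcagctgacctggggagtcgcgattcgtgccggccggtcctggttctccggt
ATP6V1G1, chr9:114587519-114587818, plus strand: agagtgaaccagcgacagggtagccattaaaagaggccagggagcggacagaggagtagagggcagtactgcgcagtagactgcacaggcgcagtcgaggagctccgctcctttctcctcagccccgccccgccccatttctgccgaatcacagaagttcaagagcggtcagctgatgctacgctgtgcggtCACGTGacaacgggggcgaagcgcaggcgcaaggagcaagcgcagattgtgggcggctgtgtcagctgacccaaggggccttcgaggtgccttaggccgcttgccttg
LAMP1, chr13:113296989-113297288, plus strand: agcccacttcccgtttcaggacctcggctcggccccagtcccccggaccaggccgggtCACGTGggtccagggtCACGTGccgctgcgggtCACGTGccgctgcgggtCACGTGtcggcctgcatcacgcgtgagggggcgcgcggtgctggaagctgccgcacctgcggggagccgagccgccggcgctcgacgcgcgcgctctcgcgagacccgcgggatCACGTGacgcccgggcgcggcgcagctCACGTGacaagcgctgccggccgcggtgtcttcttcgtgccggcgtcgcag
MCOLN1, chr19:7522374-7522673, plus strand: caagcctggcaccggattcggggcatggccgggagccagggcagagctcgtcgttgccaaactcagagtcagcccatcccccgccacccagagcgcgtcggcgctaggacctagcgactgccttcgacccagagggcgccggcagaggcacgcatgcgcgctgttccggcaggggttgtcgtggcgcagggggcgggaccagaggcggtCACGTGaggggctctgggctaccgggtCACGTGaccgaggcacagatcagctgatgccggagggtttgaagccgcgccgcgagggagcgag
In LAMP1 the letters occur 6 times, the nearest of them from 1 base before the annotated start, and in MCOLN1 they occur at 41 and 14 bases before it. ATP6V0D1 and ATP6V1G1 each hold 1 match, at 59 and 58 bases before the start.

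Each of the 43 members had at least 18 reads in every library, and 39 members held at least 100 reads in every library. Mean levels over the 9 libraries ran from 2.28 RPM for ATP6V1G2, a stalk subunit known mainly from neurons, to 2104 RPM for CTSD, the aspartic protease cathepsin D, with a median of 66.1 RPM. In all, 12 members reached 100 RPM, 28 lay between 10 and 100 RPM and 3 lay below 10 RPM. Each gene was read through its own amplicon, so these levels do not rank the genes by molecule number. The 6 matched rows under 1 RPM were ATP6AP1L (0.729 RPM), ATP6V1E2, the testis form of the E subunit (0.50 RPM), the antisense RNA ATP6V0E2-AS1 (0.246 RPM), ATP6V0D2, the d subunit of osteoclasts (0.0648 RPM, at most 4 reads), and the pseudogene ATP6V0CP3 and the kidney stalk form ATP6V1G3, both at 0 reads in every library. Other forms known from kidney were measured clearly: ATP6V0A4 averaged 96.8 RPM and ATP6V1B1 82.0 RPM. TCIRG1, the a3 subunit of osteoclasts, which the name rule does not take in, lay at 1.45 to 3.60 RPM.

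The members varied little between libraries. The ratio of the highest to the lowest library had a median of 1.48, was below 1.5 for 26 of 43 members and reached 2 for 5. Among members of at least 10 RPM, 65.0% stayed under 1.5, against 56.8% of the 7929 genes at that level, and the medians of both sets were 1.46. LAMP2, a membrane glycoprotein used in chaperone-mediated autophagy, was the steadiest, with 454, 444 and 469 RPM in siRNA 2 libraries, 418, 469 and 415 RPM in siRNA 1 libraries and 470, 426 and 445 RPM in control libraries. The widest ratio was 2.94 for TPP1, tripeptidyl peptidase, whose levels were 77.2, 78.7 and 31.0 RPM in siRNA 2 libraries, 60.9, 74.5 and 91.1 RPM in siRNA 1 libraries and 66.7, 60.7 and 52.3 RPM in control libraries. The low TPP1 value belongs to siRNA 2 replicate 3 alone, and the groups overlapped.

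Summed levels by role differed little between the groups. All members together made 8102 ± 421 RPM in siRNA 2 libraries, 8124 ± 305 RPM in siRNA 1 libraries and 8375 ± 316 RPM in control libraries (SD, n = 3 each). Hydrolases and activators, led by CTSD and PSAP, made 4802 ± 376 RPM with siRNA 2, 4856 ± 258 RPM with siRNA 1 and 5105 ± 321 RPM in control. Membrane and lipid transport proteins made 1009 ± 19.5 RPM in siRNA 2 libraries, 977 ± 39.9 RPM in siRNA 1 libraries and 974 ± 35.9 RPM in control libraries. The V0 sums were 1083 ± 42.1 RPM with siRNA 2, 1072 ± 24.6 RPM with siRNA 1 and 1044 ± 70.1 RPM in control, and the V1 sums were 651 ± 44.9 RPM with siRNA 2, 656 ± 27.5 RPM with siRNA 1 and 658 ± 34.4 RPM in control. The accessory proteins ATP6AP1 and ATP6AP2 together made 544 ± 23.4 RPM with siRNA 2, 550 ± 36.7 RPM with siRNA 1 and 581 ± 16.8 RPM in control. No test was made of these sums. RPM are shares of a library, so they carry no change in the total RNA of a cell, and in bulk RNA fewer cells of a type and less RNA per cell cannot be told apart.

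**Figure D1:**
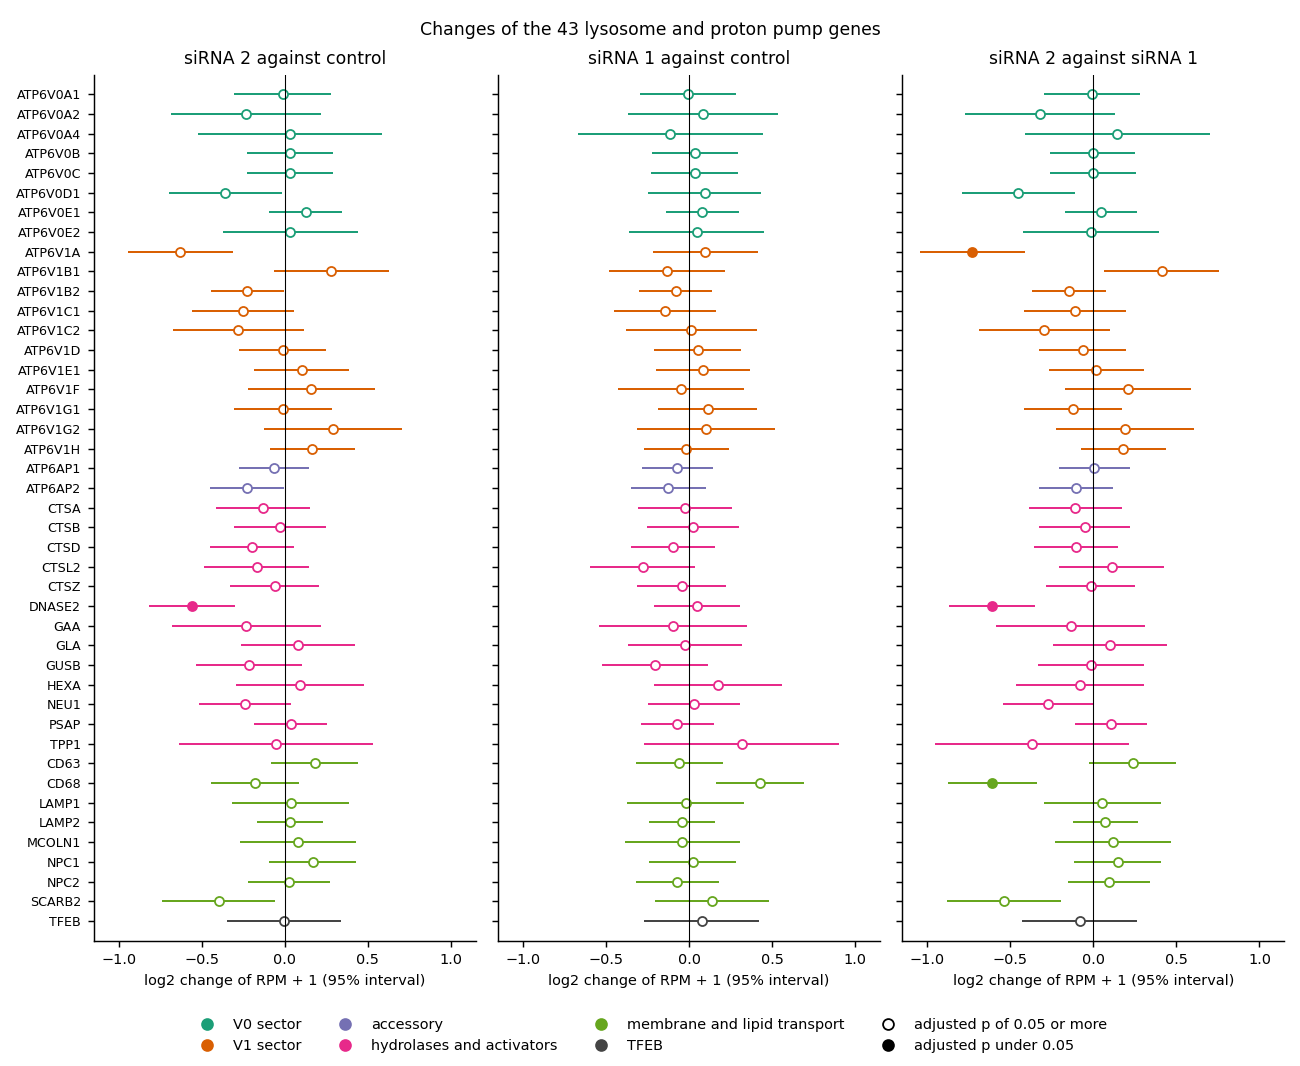
Log2 change of RPM + 1 (horizontal axis) of the 43 members, grouped by role, for siRNA 2 against control, siRNA 1 against control and siRNA 2 against siRNA 1. Points are limma estimates with 95% intervals, filled where the adjusted p was under 0.05: DNASE2 in the left panel, none in the middle panel, and ATP6V1A, DNASE2 and CD68 in the right panel.

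With siRNA 2, DNASE2 fell against control and no other member passed the test in limma without the replicate block. DNASE2 encodes the acid deoxyribonuclease that degrades DNA in lysosomes, and its mean was 68.1% of control. It was 1 of 43 members (2.33%) past an adjusted p of 0.05 in limma, a share to be read against 0.681% of the 11158 genes tested in either direction and 0.645% for lower genes. With the replicate number as a block, 2 members were lower, DNASE2 and ATP6V1A, where 3.41% of all genes were called. edgeR on the whole reads called 0 members, where it called 0.52% of all genes, and DESeq2 called the same pair of genes as the block, where it called 1.61% of all genes. At an unadjusted limma p under 0.05 there were 6 members (14.0%), all lower, against 9.42% of all genes in either direction.

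DNASE2 (amplicon AMPL11870710) held 55.5, 65.1 and 47.2 RPM in siRNA 2 libraries, 84.4, 81.7 and 89.2 RPM in siRNA 1 libraries and 84.1, 82.8 and 79.7 RPM in control libraries. The siRNA 2 libraries lay below all 6 others, while siRNA 1 and control libraries overlapped. The log2 change of RPM + 1 with siRNA 2 was -0.56 (SE 0.118, 95% interval -0.81 to -0.31, limma adjusted p = 0.0468). It passed the threshold under 6 of 22 alternatives. edgeR gave an adjusted p of 0.0654 and limma with the replicate block 0.00584. In limma refits the adjusted p was 0.184, 0.196 and 0.128 without control replicates 1, 2 and 3, 0.127 without siRNA 2 replicate 1 or replicate 3, 0.0586, 0.0748 and 0.0733 without siRNA 1 replicates 1, 2 and 3, and 0.0214 without siRNA 2 replicate 2. The summed markers of SKBR3 and luminal cells, given above, were lower in the same 3 libraries. Of the 13 tested, 0 passed the threshold in limma, where 0.681% of all genes did. At an unadjusted p under 0.05 there were 7, against 9.42% of all genes. With the block 4 were lower, against 3.41% of all genes in either direction. The part of these markers in the DNASE2 result was not tested.

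ATP6V1A encodes the catalytic A subunit of the V1 sector, which binds and hydrolyses ATP. Its amplicon (AMPL11720855) held 19.6, 23.4 and 16.7 RPM in siRNA 2 libraries, 36.7, 34.8 and 28.9 RPM in siRNA 1 libraries and 32.4, 32.0 and 28.8 RPM in control libraries. Again the siRNA 2 libraries were the 3 lowest, and siRNA 1 and control libraries overlapped. Against control the log2 change was -0.63 (95% interval -0.94 to -0.32) with a limma adjusted p of 0.0763, and 0.00409 with the replicate block. The other catalytic-ring subunits were nearer to control: ATP6V1B2, the widely expressed B subunit, was at 138, 118 and 140 RPM in siRNA 2 libraries, 154, 135 and 149 RPM in siRNA 1 libraries and 158, 149 and 156 RPM in control libraries (log2 change -0.23 with siRNA 2). ATP6V1B1, the B subunit of kidney, was at 118, 81.2 and 88.6 RPM in siRNA 2 libraries, 64.3, 64.7 and 86.0 RPM in siRNA 1 libraries and 84.3, 65.4 and 85.8 RPM in control libraries, with overlap.

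Elsewhere in the pump no subunit passed the threshold in limma with siRNA 2. The siRNA 2 libraries lay below every control library for 6 members (14.0%), against 8.95% of all genes tested: DNASE2, ATP6V1A, ATP6V1B2, ATP6AP2, CTSL2 and SCARB2. They lay above every control library for ATP6V1G2 alone, against 4.99% of all genes. ATP6AP2, the prorenin receptor and an assembly partner of the pump, held 94.0, 91.6 and 113 RPM with siRNA 2, 108, 107 and 105 RPM with siRNA 1 and 116, 117 and 116 RPM in control (log2 change with siRNA 2 -0.23, limma adjusted p = 0.496). ATP6V0D1, the d subunit that joins the central stalk to the proton-carrying ring, held 29.8, 29.5 and 20.7 RPM with siRNA 2, 39.7, 35.8 and 33.7 RPM with siRNA 1 and 35.4, 38.3 and 29.0 RPM in control (-0.36, adjusted p = 0.487). ATP6V1C1, a stator subunit of V1, changed by -0.25. Of the ring subunits, ATP6V0C held 306, 284 and 232 RPM with siRNA 2, 283, 282 and 253 RPM with siRNA 1 and 304, 253 and 245 RPM in control, and its pseudogene ATP6V0CP3 gave no reads.

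Of the 13 hydrolases and activators, DNASE2 included, only DNASE2 passed the test with siRNA 2. Of the 13, 10 had a negative change (76.9%), with a median of -0.13, where 54.6% of all genes were negative, with a median of -0.02. NEU1, lysosomal sialidase, held 35.3, 40.9 and 33.5 RPM with siRNA 2, 42.6, 45.3 and 44.5 RPM with siRNA 1 and 43.7, 49.1 and 37.6 RPM in control (-0.24 against control). CTSD held 2059, 2216 and 1632 RPM with siRNA 2, 2004, 2190 and 2101 RPM with siRNA 1 and 2288, 2367 and 2079 RPM in control, and PSAP, the precursor of the saposins, 1927, 2117 and 2103 RPM with siRNA 2, 1752, 1953 and 2008 RPM with siRNA 1 and 1846, 2172 and 1987 RPM in control. Both overlapped between all groups. Over all 43 members the median change was -0.01, against -0.02 for all genes, with 19 positive and 24 negative.

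Of the membrane proteins, SCARB2 (LIMP-2), the receptor that carries glucocerebrosidase to lysosomes, held 44.9, 42.2 and 29.1 RPM with siRNA 2, 64.0, 53.7 and 50.2 RPM with siRNA 1 and 45.6, 55.1 and 51.3 RPM in control. The siRNA 2 libraries lay below the control libraries by a narrow margin, with a log2 change of -0.40 (limma adjusted p = 0.400). LAMP1 and LAMP2, the main glycoproteins of the lysosomal membrane, both changed by 0.03. NPC1 and NPC2, which move cholesterol out of lysosomes, changed by 0.17 and 0.03. TFEB held 12.9, 13.4 and 10.8 RPM with siRNA 2, 13.7, 14.0 and 11.6 RPM with siRNA 1 and 14.5, 12.0 and 10.7 RPM in control, and its RNA did not separate the groups.

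**Figure D2:**
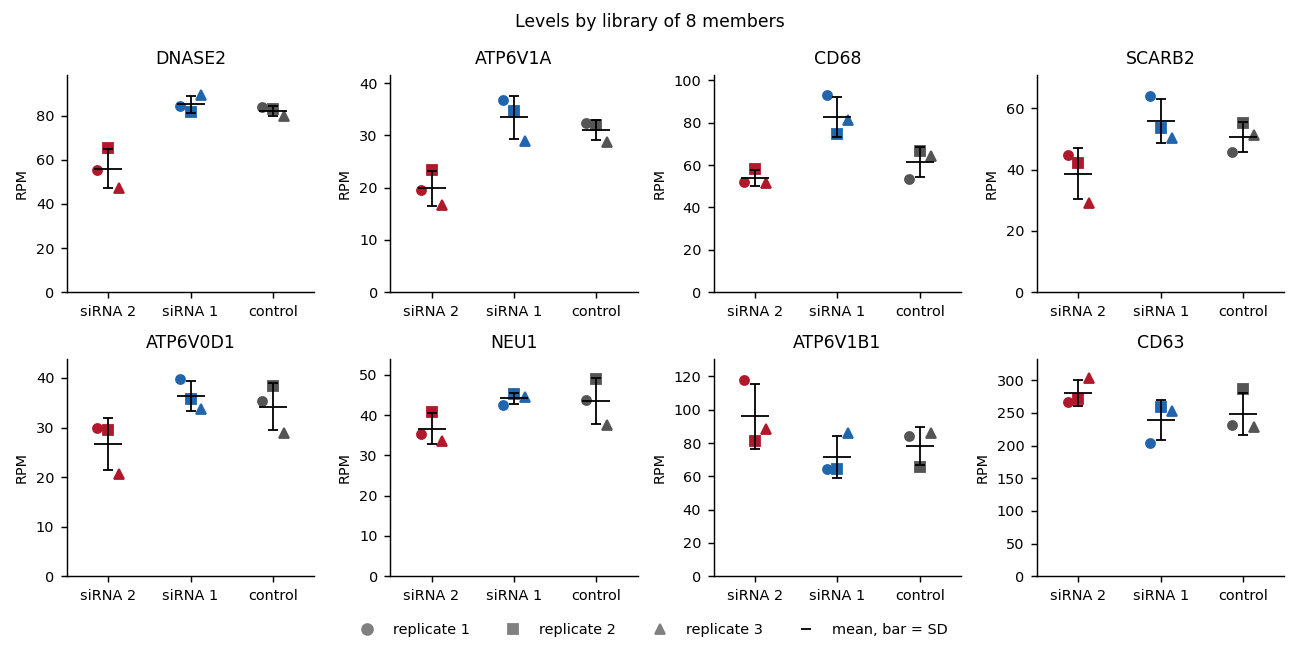
RPM by library (vertical axis, from 0) of 8 members in siRNA 2, siRNA 1 and control libraries; symbols mark the replicate number, lines the mean and bars the SD (n = 3). DNASE2 in siRNA 2 libraries lies at 47.2 to 65.1 RPM, below the 79.7 RPM of the lowest control library, and CD68 lies at 74.5 to 93.0 RPM in siRNA 1 libraries.

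The direct comparison of the PVRL4 siRNAs called 3 members, all lower with siRNA 2 than with siRNA 1: DNASE2, ATP6V1A and CD68. That is 6.98% of members, against 3.05% of all genes tested in either direction and 2.46% for lower genes. edgeR called the same 3, against 3.08% of all genes, and DESeq2 called 4 (9.30%), with SCARB2 added, against 4.79% of all genes. At an unadjusted p under 0.05 there were 7 members (16.3%), against 15.1% of all genes. With the replicate block 6 members passed, 5 lower and 1 higher, where 9.33% of all genes passed, so the share of members (14.0%) rests on few genes. Without overlap, siRNA 2 libraries lay below siRNA 1 libraries for 6 members against 12.6% of all genes, and above them for CD63 and NPC2 against 7.04% of all genes. Both comparisons with control use the same control libraries, and the test given here is that of the difference itself.

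The luminal marker sums given above were lower in the same direction, and their part in these calls was not tested. Of the 13 luminal markers tested, limma called 1 lower, EHF (-0.54, adjusted p = 0.0332). Its call was lost without control replicate 3, siRNA 1 replicates 2 or 3 or siRNA 2 replicates 1 or 3 (0.0509 to 0.144). With the block 6 were lower, and 7 had an unadjusted p under 0.05, against 9.33% and 15.1% of all genes. DNASE2 differed by -0.61 between siRNA 2 and siRNA 1 (95% interval -0.86 to -0.36, limma adjusted p = 0.0127), from the library values above. The call held under 21 of 22 alternatives and was lost without siRNA 1 replicate 3 (adjusted p = 0.0573). ATP6V1A differed by -0.73 (95% interval -1.04 to -0.42, limma adjusted p = 0.0146), and its call was lost without siRNA 1 replicate 1 (0.0669). ATP6V0D1 differed by -0.45 (adjusted p = 0.160, with the replicate block 0.0153). ATP6V1B1 differed in the other direction, by 0.41 (adjusted p = 0.217, with the block 0.0398). SCARB2 differed by -0.54 (adjusted p = 0.0910, with the block 0.0123, DESeq2 0.0389). NEU1 differed by -0.27 and CD63, a tetraspanin of late endosomes and exosomes, by 0.24, neither past the threshold with or without the block. CD63 held 267, 272 and 303 RPM with siRNA 2, 203, 259 and 253 RPM with siRNA 1 and 232, 286 and 228 RPM in control.

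CD68, a heavily glycosylated protein of the lysosomal membrane best known from macrophages, stood apart in the siRNA 1 libraries. Its amplicon (AMPL11140287) held 52.0, 58.0 and 51.6 RPM in siRNA 2 libraries, 93.0, 74.5 and 81.1 RPM in siRNA 1 libraries and 53.4, 66.8 and 64.2 RPM in control libraries. The siRNA 1 libraries were the 3 highest of the 9, and the siRNA 2 and control libraries overlapped. Between siRNA 2 and siRNA 1 the difference was -0.61 (95% interval -0.87 to -0.35, limma adjusted p = 0.0150), and the call was lost without siRNA 1 replicate 1 (0.0712) or siRNA 2 replicate 1 (0.0527).

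With siRNA 1 no member passed the test against control. limma, limma with the replicate block, edgeR and DESeq2 each called 0 of 43 members, where 0.851% of all genes were called in limma, 1.85% with the block, 0.968% in edgeR and 1.44% in DESeq2. At an unadjusted p under 0.05 there was 1 member, CD68, against 6.04% of all genes. CD68 was also the 1 member whose siRNA 1 libraries lay above every control library (6.4% of all genes), and its mean was 135% of control with a log2 change of 0.43 (limma adjusted p = 0.205, with the block 0.0668). Below every control library lay ATP6AP2 and CTSL2, a cathepsin L paralog (CTSV) whose amplicon may share reads with CTSL, against 5.59% of all genes. CTSL2 held 11.5, 13.6 and 13.1 RPM with siRNA 2, 10.3, 13.2 and 11.7 RPM with siRNA 1 and 14.1, 15.1 and 14.0 RPM in control, a log2 change with siRNA 1 of -0.28 (adjusted p = 0.923). The next members by p were GUSB (-0.20), ATP6AP2 (-0.12), TPP1 (0.32), ATP6V1C1 (-0.14), HEXA (0.17) and SCARB2 (0.14).

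The intervals of the changes were narrow for most members. With siRNA 1, the 95% interval of the log2 change lay within -0.5 and 0.5 for 34 of 43 members and within -1 and 1 for 43 of 43. With siRNA 2 the same counts were 28 and 43, and for siRNA 2 against siRNA 1 they were 29 and 42. The median member change with siRNA 1 was -0.0055, against 0.01 for all genes, with 21 positive and 22 negative.

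Genes of the type I interferon response, a list chosen because it moved with siRNA 1 in earlier results of these data, are given as a description only. The 35 genes summed to 341, 387 and 508 RPM in siRNA 2 libraries, 8826, 1511 and 4209 RPM in siRNA 1 libraries and 331, 382 and 362 RPM in control libraries. Within the siRNA 1 group the sums had the order of replicate 1, then 3, then 2, which CD68 shared with 5 other members and 16.8% of all genes tested. The macrophage and leukocyte markers did not move the same way, with sums of 6.20 to 12.2 RPM in siRNA 2 libraries, 5.12 to 8.04 RPM in siRNA 1 libraries and 7.35 to 10.9 RPM in control libraries. CSF1R made up most of these sums, with a mean of 7.61 RPM, and 5 of the 18 markers had no reads. The part of the interferon response in the CD68 level was not tested.

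**Figure D3:**
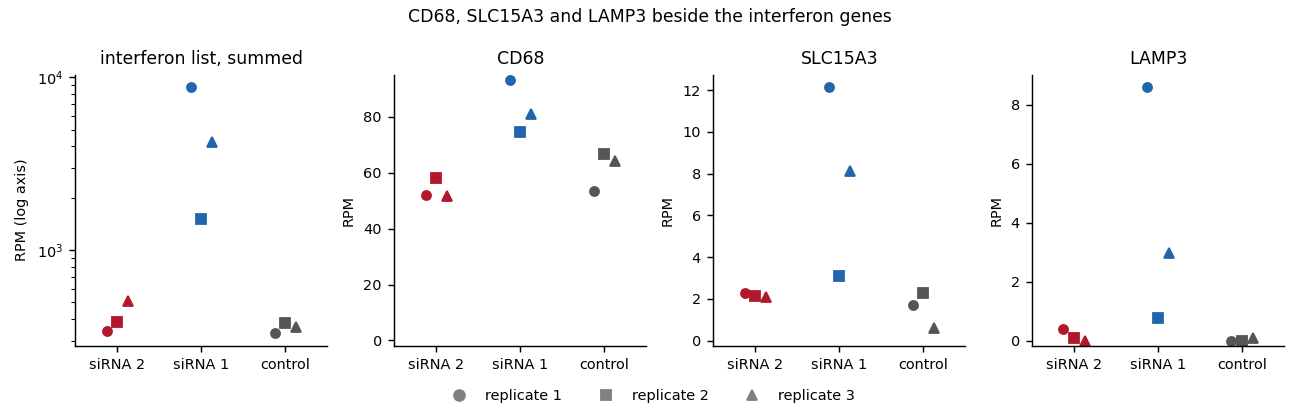
RPM by library in siRNA 2, siRNA 1 and control libraries: the sum over 35 interferon response genes (log axis), and CD68, SLC15A3 and LAMP3 (linear axes); symbols mark the replicate number. SLC15A3 lies at 3.10 to 12.2 RPM in siRNA 1 libraries, above the other 6 libraries, and LAMP3 at 0.775 to 8.60 RPM.

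SLC15A3 and LAMP3, lysosomal membrane genes outside the members, were also highest in siRNA 1 libraries. SLC15A3, a peptide and histidine carrier of the lysosomal membrane, held 2.30, 2.13 and 2.10 RPM with siRNA 2, 12.2, 3.10 and 8.12 RPM with siRNA 1 and 1.72, 2.27 and 0.591 RPM in control. It rose with siRNA 1 by 1.71 (limma adjusted p = 0.0404), a call that held without siRNA 1 replicate 2 and was lost without any of the other 8 libraries (0.0555 to 0.201). LAMP3, an interferon-inducible relative of LAMP1, held 0.399, 0.0970 and 0 RPM with siRNA 2, 8.60, 0.775 and 2.99 RPM with siRNA 1 and 0, 0 and 0.0990 RPM in control. The siRNA 2 and control values are near or under the 3-read floor of 0.280 to 0.299 RPM. LAMP3 reached a mean of 1 RPM only through the siRNA 1 libraries, so its difference is a description and no test of it is given.

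When the 6 PVRL4 siRNA libraries were pooled against the 3 control libraries, as the series names them without a siRNA number, no member passed. limma, edgeR and DESeq2 each called 0 of 43 members, where limma and edgeR called 0% of all genes tested and DESeq2 0.0358%. At an unadjusted p under 0.05 the count was 0 members, against 3.68% of all genes. ATP6AP2 and CTSL2 (4.65% of members) lay below every control library in all 6 siRNA libraries, against 1.22% of all genes, with log2 changes of -0.18 and -0.23 that did not pass. DNASE2, ATP6V1A and CD68, which differ between the siRNAs, changed by -0.25, -0.27 and 0.12 in this pooled fit.

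A large part of the spread within groups followed the replicate number of the sample titles. ATP6V0A4, the a4 subunit of kidney and epididymis, held 70.5, 112 and 118 RPM in siRNA 2 replicates 1, 2 and 3, 57.6, 104 and 115 RPM in siRNA 1 replicates, and 71.3, 97.2 and 126 RPM in control replicates. Replicate 1 was the lowest and replicate 3 the highest in each group. MCOLN1, the lysosomal calcium channel TRPML1, had the reverse order, with 23.1, 22.6 and 18.0 RPM in siRNA 2 replicates 1, 2 and 3, 22.7, 19.3 and 16.5 RPM in siRNA 1 replicates and 22.6, 20.6 and 17.0 RPM in control replicates. LAMP1 held 24.3, 22.0 and 20.2 RPM with siRNA 2, 26.4, 20.4 and 17.7 RPM with siRNA 1 and 24.5, 22.4 and 18.2 RPM in control, again with replicate 1 highest and replicate 3 lowest.

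The number that was lowest or highest was shared by all 3 groups for 22 of 43 members (51.2%), against 44.2% of all genes tested. Replicate 3 was lowest in every group for 10 members (23.3%), against 14.2% of all genes: ATP6V0A2, ATP6V0B, ATP6V0C, ATP6V0D1, ATP6V1A, ATP6V1F, ATP6V1G1, LAMP1, MCOLN1 and TFEB. Of these, 7 are pump subunits, and ATP6V1G1, a stalk subunit, held 120, 112 and 86.5 RPM with siRNA 2, 128, 116 and 101 RPM with siRNA 1 and 113, 113 and 93.2 RPM in control. The replicate number took up a median of 62.5% of the within-group spread of members, against 52.3% over all genes. In 3 groups of 3 libraries, part of such shares and counts arises without any effect of the number. Of the 6 members whose promoter window holds TCACGTGA, 4 are among the 10 with replicate 3 lowest (ATP6V0D1, ATP6V1G1, LAMP1 and MCOLN1, shown above), which was noticed after the values were seen and was given no test. CTSA and GAA, the others of the 6, lacked that order, and GAA was highest in replicate 2 of every group.

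**Figure D4:**
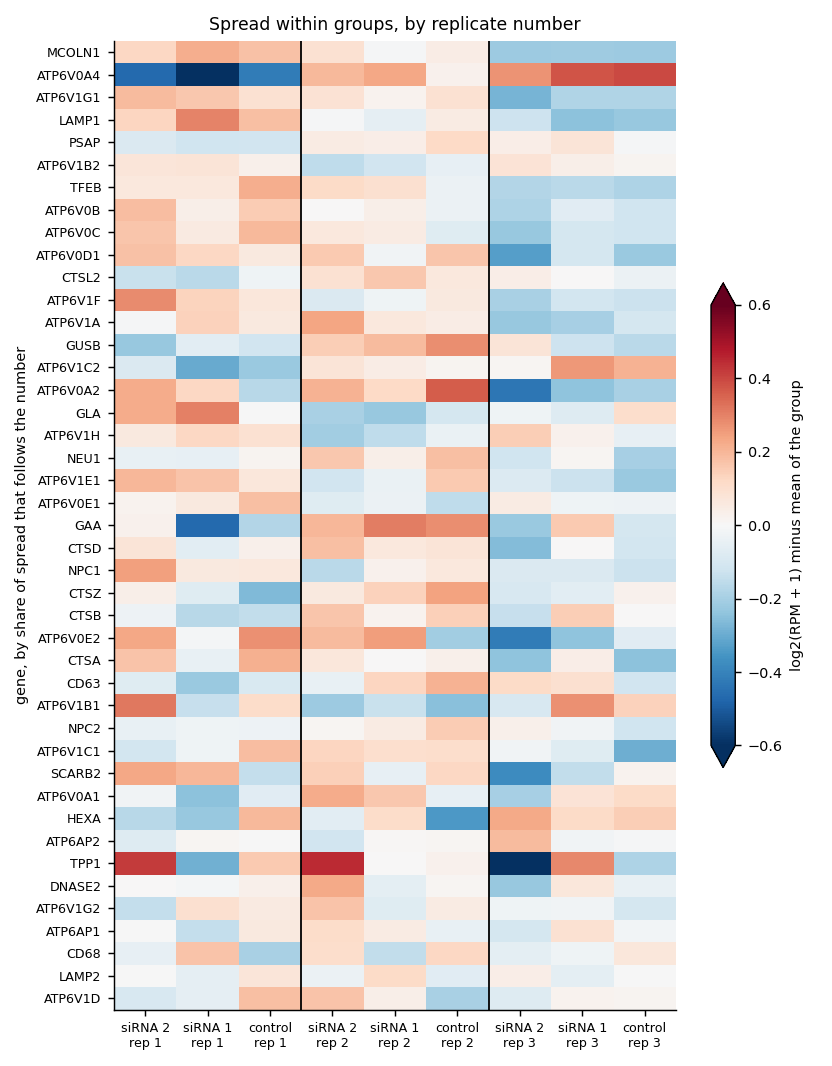
Deviation of log2(RPM + 1) from the mean of its group (colour) for the 43 members (rows, ordered by the share of within-group spread that follows the replicate number) in the 9 libraries (columns, grouped by replicate number, with siRNA 2, siRNA 1 and control within each). ATP6V0A4 is low in all 3 libraries of replicate 1, and MCOLN1, ATP6V1G1 and LAMP1 are low in all 3 of replicate 3.

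Lysosomal genes outside the members were counted over lists chosen with earlier results of these data known. Of 38 other hydrolases tested, 1 was lower with siRNA 2 than with siRNA 1, and 6 with the replicate block, where 3.05% of all genes were called in limma and 9.33% with the block. Against control with siRNA 2 none passed in limma and edgeR called 0, where 0.681% and 0.52% of all genes were called. DESeq2 called 2, against 1.61% of all genes, and 5 had an unadjusted p under 0.05, against 9.42%. With the block 1 higher and 1 lower passed, against 3.41% of all genes. The limma call was GM2A, the activator that presents GM2 ganglioside to hexosaminidase, with 170, 175 and 159 RPM in siRNA 2 libraries, 211, 233 and 238 RPM in siRNA 1 libraries and 184, 195 and 225 RPM in control libraries (-0.43, limma adjusted p = 0.0311, edgeR 0.0664, and 0.0508 to 0.118 without any of the 6 siRNA libraries). Of 36 other membrane proteins, 1 was lower with siRNA 2 than control, with or without the block. In that comparison 0.681% of all genes were called without the block and 3.41% with it. The 1 was TPCN1, a channel of endosomes and lysosomes. It held 69.1, 68.4 and 56.8 RPM with siRNA 2, 94.3, 97.0 and 99.2 RPM with siRNA 1 and 94.0, 95.3 and 85.6 RPM in control. Its change was -0.50 against control (limma adjusted p = 0.0495, edgeR 0.0572, lost without any of the 9 libraries, 0.0631 to 0.237) and -0.58 against siRNA 1 (0.00868), a call that held without each library in turn. Against siRNA 1, TPCN1 and CLN3 were lower in limma. LAMP3 is not counted as a call here, since it passed the filter only through the siRNA 1 libraries. With the block, 1 of the 36 was higher and 5 were lower. Both the 36 and the 5 take in LAMP3, which is not read as a call with the block either. CLN3, a membrane protein mutated in Batten disease, had no call in edgeR or DESeq2 (119, 132 and 141 RPM with siRNA 2, 186, 165 and 178 RPM with siRNA 1, 181, 151 and 164 RPM in control; -0.43, limma adjusted p = 0.0375, edgeR 0.101, DESeq2 0.0525, and 0.0600 to 0.140 without control replicate 3, any siRNA 1 replicate or siRNA 2 replicates 1 or 2).

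Of 23 genes of TFEB relatives and mTORC1 at the lysosome, LAMTOR5, a subunit of the Ragulator scaffold that ties mTORC1 to the lysosome and the pump, fell with siRNA 2. It was the 1 gene of this list that limma called against control, where 0.681% of all genes were called. It held 41.9, 55.1 and 57.5 RPM in siRNA 2 libraries, 105, 85.9 and 76.0 RPM in siRNA 1 libraries and 83.0, 84.1 and 88.8 RPM in control libraries, with siRNA 2 below all others. The change was -0.73 against control (limma adjusted p = 0.0275, edgeR 0.0517, and 0.0510 to 0.125 without any control library or siRNA 2 replicates 1 or 2) and -0.77 against siRNA 1 (0.00753, held without each library in turn). In the same list FNIP2, a partner of folliculin in that pathway, was higher with siRNA 2 than with siRNA 1 (11, 9.01 and 7.54 RPM with siRNA 2, 4.73, 4.94 and 4.76 RPM with siRNA 1, 9.35, 9.85 and 7.49 RPM in control; 0.79, adjusted p = 0.0247, and 0.0586 to 0.0978 without any siRNA 1 replicate or siRNA 2 replicates 1 or 2). Here the siRNA 1 libraries stood apart, while siRNA 2 and control overlapped. Between siRNA 2 and siRNA 1, limma called 1 gene of this list higher and 1 lower, where it called 3.05% of all genes. With the block, 2 were higher and 2 lower, where 9.33% of all genes passed.

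Of 24 genes that deliver hydrolases to lysosomes, VPS26A, a retromer subunit, was lower with siRNA 2 than with siRNA 1 (150, 147 and 158 RPM with siRNA 2, 228, 214 and 200 RPM with siRNA 1, 193, 224 and 196 RPM in control; -0.49, limma adjusted p = 0.0146, and 0.0687 without siRNA 1 replicate 1 or 0.0501 without siRNA 2 replicate 2). Of 27 autophagy genes, WIPI1, which marks forming autophagosomes, was lower in the same comparison (65.3, 66.6 and 55.7 RPM with siRNA 2, 85.9, 87.5 and 87.9 RPM with siRNA 1, 81.7, 73.4 and 83.1 RPM in control; -0.48, limma adjusted p = 0.0249, and 0.0719 to 0.0831 without any siRNA 1 replicate or siRNA 2 replicate 3). Both genes were also lower with siRNA 2 than in every control library, as were 8.95% of all genes tested, without a call against control in limma. They were picked by the comparison with siRNA 1, which uses the same siRNA 2 libraries. Between siRNA 2 and siRNA 1 the block called 1 delivery gene higher and 2 lower, and 1 autophagy gene higher and 1 lower. In that comparison 9.33% of all genes were called with the block and 3.05% in limma without it. The 18 genes of late endosome fusion and the 13 of pump assembly gave no call in limma, edgeR or DESeq2 in any of the 4 comparisons. At an unadjusted p under 0.05 there was 1 gene of each between siRNA 2 and siRNA 1, which passed with the replicate block, and 1 fusion gene between siRNA 1 and control.

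Across the 9 libraries, the genes whose level followed that of DNASE2 most closely were the Golgi GTPase RAB6A (Pearson r of log2(RPM + 1) = 0.976), the transcription factor NFIB (0.972), the channel TPCN1 (0.972), the nectin-2 gene PVRL2 (0.971) and the interleukin-6 receptor gene IL6R (0.969), each lower with siRNA 2 than in the other groups. Among members ATP6V1A was closest (0.943), then ATP6V0D1 (0.851) and NEU1 (0.837). These correlations describe 9 libraries that share their groups and have no p.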

How the data were processed

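Per the labels' protocols, the authors started from 100 ng of total RNA and used an Ion AmpliSeq kit, which reads 1 amplicon per gene. Paralogs, pseudogenes or antisense RNAs that share an amplicon cannot be told apart. The authors deposited 1 table of RPM values; per the submitters' processing notes the build was hg19, and no aligner or counter is given in the sources used here. RPM steps gave whole reads for 100% of values within 0.1 read, with totals of 10017130 to 10707777 reads per library. Floors in reads cover counting error only.

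Groups came from the sample titles. Changes were tested with limma 3.58.1 (R 4.3.3, trended prior) on log2(RPM + 1) of the 11158 genes whose mean reached 1 RPM. The scale understates changes of genes near 1 RPM. The 3 groups shared 1 estimate of the spread, the pooled comparison was a 2-group fit, tests were two-sided, and p-values were adjusted by Benjamini-Hochberg over all genes tested, with a threshold of 0.05. Unless another tool is named, adjusted p-values are limma's. edgeR 4.0.16 (quasi-likelihood) and DESeq2 1.42.0 were run on the recovered reads. The fit was tested on simulated reads drawn independently for each library, without an effect of the replicate number. That test does not show how the fit behaves with such an effect.

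Members and lists were chosen with earlier results of these data known. Named are members past the threshold and the 8 with the smallest p in each comparison other than the pooled one. Up to 4 called genes of each other list apart from the interferon list are also named. So are the 5 genes most like a member called against control. Other members are described by their levels. The 6 rows under 1 RPM were not tested. Libraries that share a replicate number were alike in their deviations from group means, although the main fit took no account of the number. The correlations were 0.252 to 0.417 in the 9 pairs sharing a number in the sample titles. In the other 18 pairs they were -0.340 to -0.0275. Deviations cancel within a group, so positive values in the first pairs force negative ones among the others.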

Additional observations from a re-analysis of the deposited data

Results flagged for a closer look

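In the test of the difference itself, 3 members differed between the PVRL4 siRNAs, all lower with siRNA 2 than with siRNA 1. The log2 difference (siRNA 2 minus siRNA 1) was -0.73 for ATP6V1A, which averaged 19.9 ± 3.34 RPM with siRNA 2 and 33.4 ± 4.09 RPM with siRNA 1 (SD, n = 3 each). For DNASE2 it was -0.61, with 55.9 ± 8.96 RPM with siRNA 2 and 85.1 ± 3.78 RPM with siRNA 1. For CD68 it was -0.61, with 53.9 ± 3.60 RPM with siRNA 2 and 82.8 ± 9.40 RPM with siRNA 1. Groups of 3 libraries are too small for an outlier test.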

How the results depend on the processing

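The count of members called between siRNA 2 and control (1) was 0 with a pseudocount of 5, with no filter, with median-of-ratios, TMM or quantile scaling, in a fit of the compared groups only, in limma without a trend and in edgeR, and 2 with the replicate block, in edgeR with the block and in DESeq2. Leaving out a library gave 0 to 1. Between siRNA 2 and siRNA 1 (3 members) the count was 6 with the replicate block, with or without edgeR, and 1 to 3 with a library left out, the 1 being without siRNA 1 replicate 1. The counts of 0 for siRNA 1 against control and for the pooled comparison stayed 0 under all alternatives run. Of 528 refitted changes over 24 pairs of a named member and a comparison, 497 kept their direction and side of the threshold. Another 10 newly passed it, 20 no longer passed it and 1 turned. The 1 was HEXA with siRNA 1 against control, which ranged from -0.0013 (without control replicate 2) to 0.28 with a library left out. Most of the 24 pairs were not called in the main fit. DNASE2 with siRNA 2 against control, called there, passed in only 6 of 22 refits and made most of the 20 losses. The causes were not tested. Another scaling moved the median change of all genes by under 0.1. In the 3-group fit the 95% interval of a log2 change reached a median of 0.284 to either side. This is not a limit of detection, since calls rest on adjusted p-values, and larger changes also went uncalled. With siRNA 2 against control, changes of -0.40 for SCARB2 and -0.63 for ATP6V1A did not pass in the main fit (limma adjusted p = 0.400 and 0.0763). With the replicate block the limma adjusted p was 0.103 for SCARB2 and 0.00409 for ATP6V1A, so ATP6V1A passed there.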
